A study of Mus musculus with 6 samples.

Results

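The genes described here encode 52 nucleolar factors that build ribosomes, named by symbol in a list. The list goes by their known roles but was proposed with results of these libraries known. All 52 were found in the table of 22105 genes, and all 52 passed the filter on low values that left 10863 genes for testing. They were followed in 4T1 cells, a mouse mammary carcinoma line, that were kept for 24 h with phosphate-buffered saline (PBS) or with drug-loaded polymer nanoparticles, labelled CM-PEG-PLGA@DOX/R848, which brought 2 µg/mL of doxorubicin (DOX). Doxorubicin damages DNA by trapping topoisomerase on it, and R848 (resiquimod) is a small agonist of Toll-like receptors. No other genotype, line or treatment separates the groups, each of which has 3 libraries, and particles without drug or with a single drug were not analysed here. Nothing in the labels names separate cultures behind the libraries; the p-values therefore reflect the spread among these libraries alone, which may be technical.

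Ribosomes are assembled in the nucleolus, where RNA polymerase I copies the ribosomal DNA into a long precursor RNA. Small nucleolar ribonucleoproteins (snoRNPs) modify this precursor, and successive protein complexes fold it, cut it and load it with ribosomal proteins to give the small (40S) and large (60S) subunits. Many of these factors are induced together in growing cells, several of them through the transcription factor MYC, and doxorubicin belongs to the anthracyclines, which are known to interfere with ribosomal RNA synthesis. The libraries were enriched for mRNA, so the values below are levels of the mRNAs that encode the factors and not of ribosomal RNA or of the proteins.

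Levels are given in FPKM, fragments scaled by transcript length and by library size, a unit inferred from the values because the table's header names none. Each library had 10596 to 10631 genes at 1 FPKM or more, and Pearson's r of log2(FPKM + 1) over the tested genes was 0.9956 to 0.9969 within groups. Of 8 mammary epithelial markers 6 reached 1 FPKM, and their sum went from 800 to 814 FPKM in the PBS libraries to 1111 to 1152 FPKM in the nanoparticle libraries. The keratins Krt8 (215 to 343 FPKM, log2 fold change 0.67), Krt18 (514 to 685 FPKM, 0.41) and Krt7 (53.8 to 71.6 FPKM, 0.41), the minor keratin Krt19 (0.41) and the cadherin Cdh1 (0.25) were called higher. Cldn4 went the other way, from 3.02 to 2.63 FPKM, and did not pass (log2 fold change -0.15, limma adjusted p = 0.0623). Epcam (0.551 and 0.639 FPKM) and Cldn7 (0.0889 and 0.33 FPKM) stayed under 1 FPKM. The 9 lymphocyte markers summed to 0.268 to 0.327 FPKM with PBS, where 5 were at 0, and 1.04 to 1.19 FPKM with nanoparticles, where 8 had the higher mean. The 8 macrophage markers summed to 11.2 to 12.5 and 8.99 to 12.2 FPKM: Cd14 fell from 11.9 to 7.13 FPKM, while the other 7 had the higher mean with nanoparticles. Of those 7, Csf1r rose (0.0416 to 1.45 FPKM, limma adjusted p = 2.3e-06), and Ptprc, Adgre1 and Fcgr1, at 0 with PBS, averaged 0.527, 0.0633 and 0.286 FPKM with nanoparticles, beside Mrc1 at 0.0555 and 0.759 FPKM. The 7 fibroblast markers summed to 32.7 to 33.0 FPKM with PBS and 7.69 to 9.49 FPKM with nanoparticles, as the receptors Pdgfra and Pdgfrb fell, but the other 5 had the higher mean with nanoparticles, none above the 0.415 FPKM of Col1a1 (0.265 FPKM with PBS). The 5 endothelial markers summed to 8.36 to 8.58 and 2.18 to 2.52 FPKM, as Cdh5 fell, and the other 4 had the higher mean with nanoparticles, none above the 0.362 FPKM of Pecam1 (0.0503 FPKM with PBS). Over the whole table, too, more genes lay just above 0 with nanoparticles. Those above 0 and under 0.2 FPKM in both libraries of a pair numbered 3745 to 3860, against 1136 to 1256 with PBS. Small rises of markers from near 0 are therefore not particular to a cell type. The part of the markers above in the results below was not tested. In a bulk sample, fewer cells of a type and less RNA per cell cannot be told apart, and FPKM is relative to each library's total.

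Most of the nucleolar factors rose. After nanoparticle exposure 45 of the 52 were higher, 3 were lower (Npm1, Imp3 and Ddx10) and 4 did not pass (Utp20, Nob1, Wdr12 and Rrp1), by limma at an adjusted p under 0.05. Of all 10863 tested genes, 40.5% were higher and 46.0% were lower. The rise reached at least 2-fold for 27 of the 52, against 10.2% of all tested genes. The median log2 fold change of the factors was 1.07 (middle 50% from 0.62 to 1.32), beside -0.06 for all tested genes (-0.64 to 0.50). In 46 of the 52, every nanoparticle library lay above every PBS library, which was so for 40.8% of all tested genes. In 3 every nanoparticle library lay below, and in 3 the groups overlapped. Groups without overlap in either direction were common in these libraries, with 9469 of the 10863 tested genes beside 49 of the 52 factors. The list was proposed with results of these libraries known, so these counts describe it and no test of the list as a whole was made.

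**Figure D1:**
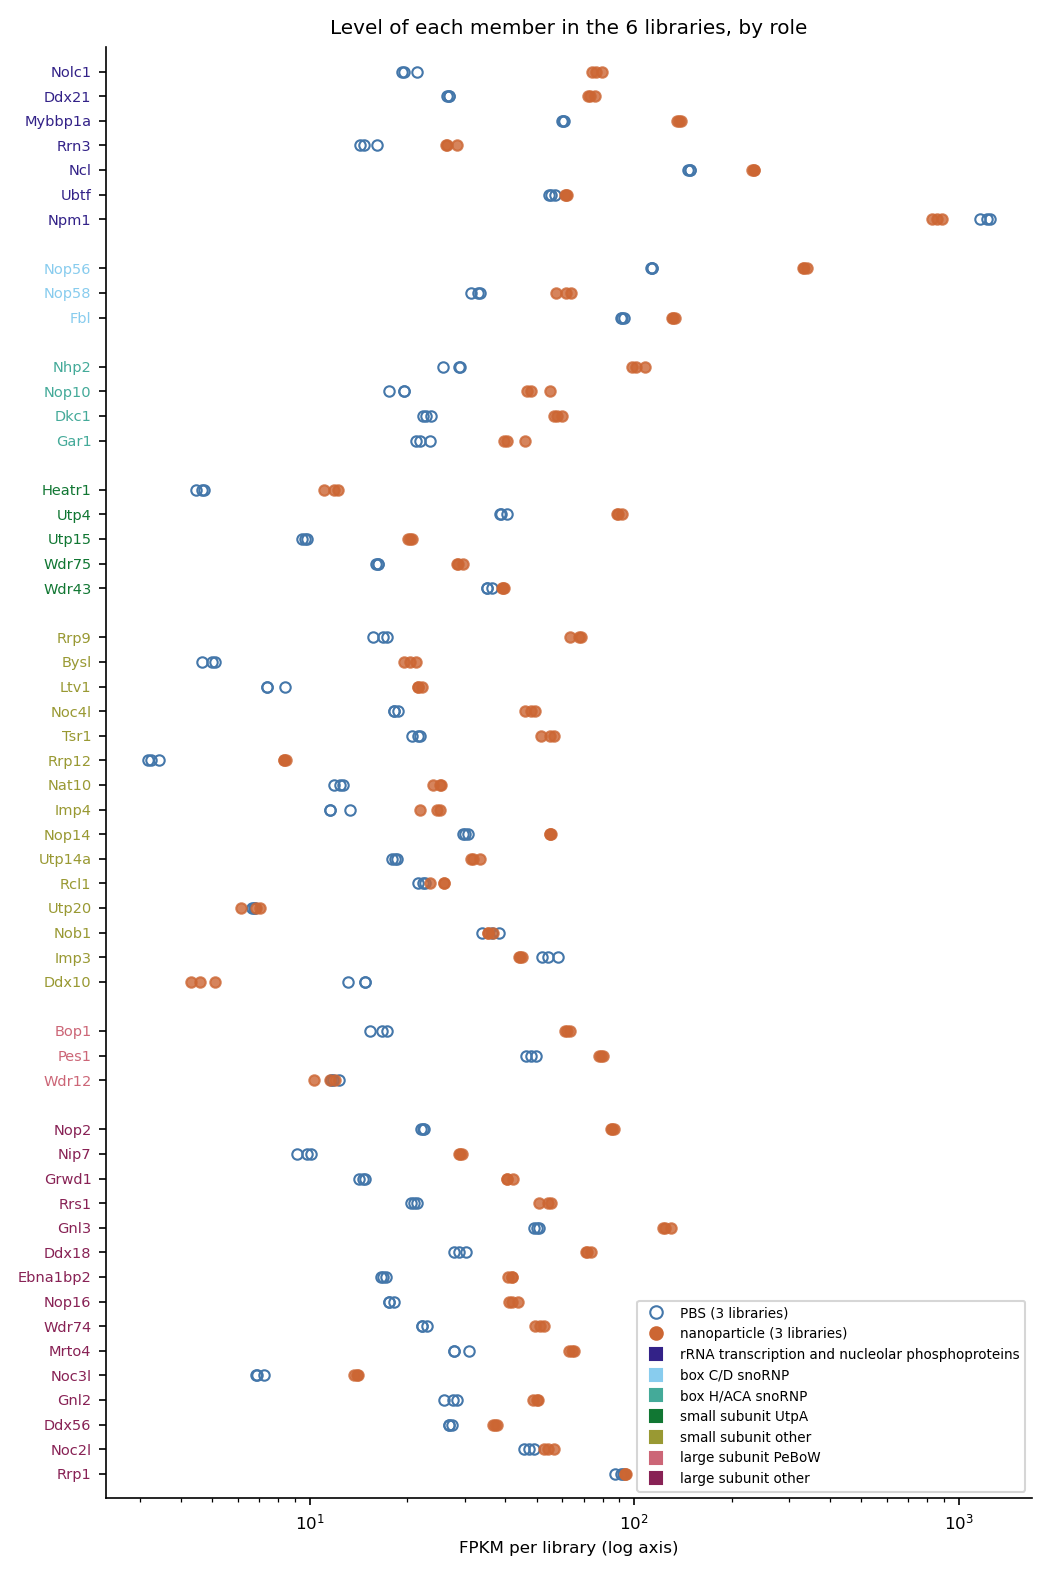
Level of each of the 52 factors in FPKM (log axis), with 3 open points for the PBS libraries and 3 filled points for the nanoparticle libraries, in blocks by role. Npm1 lies far to the right of the rest and moves left with nanoparticles, as do Imp3 and Ddx10, while most others move right with little spread between libraries.

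The libraries of a group lay close together. The coefficient of variation of a factor over the 3 libraries had a median of 2.87% with PBS (0.257% for Nop56 to 8.45% for Imp4) and 2.69% with nanoparticles (0.476% for Rrp1 to 8.79% for Nop10). Levels per length ranged with PBS from 3.28 FPKM (Rrp12) to 1211 FPKM (Npm1), with a median of 22.2 FPKM. With nanoparticles they ranged from 4.65 FPKM (Ddx10) to 857 FPKM (Npm1), with a median of 49.9 FPKM. At least 50 FPKM was reached by 9 of the factors with PBS and by 25 with nanoparticles.

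Because several of these genes moved together, the RefSeq promoters (GRCm38.p6, 250 bases before to 50 after each gene's start) were searched for the E-box CACGTG, which reads the same on both strands and is bound by MYC with MAX and by other factors of that family. Promoters were found for 46 of the 52 by symbol, and 11 of those 46 (23.9%) held CACGTG, against 11.9% of 8580 tested genes with a promoter and 8.09% of all 27025 genes of the promoter table. Among the further genes of the wider pathway described below, 17 of 98 with a promoter (17.3%) held it. That share lies between those of the factors and of all tested genes, and the differences were not tested. Of the 11 factors, 8 carried CACGTG in the 50 bases after the start and 3 before it. The sequences below show the match, in capitals, with up to 12 bases on either side, for the 4 risen factors with the largest fold change among those that hold it, and for Utp20, which holds it and did not pass.

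Nop2: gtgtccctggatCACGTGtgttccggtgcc
Grwd1: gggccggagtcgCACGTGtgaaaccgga
Ltv1: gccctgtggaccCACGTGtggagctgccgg
Tsr1: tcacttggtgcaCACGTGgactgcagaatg
Utp20: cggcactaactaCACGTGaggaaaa

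These windows lie at chr6:125131811-125131840 (plus strand, Nop2), chr7:45830740-45830767 (minus strand, Grwd1), chr10:13193092-13193121 (minus strand, Ltv1), chr11:74898092-74898121 (plus strand, Tsr1) and chr10:88826765-88826789 (minus strand, Utp20). Counting the start as base 1, the first base of the E-box falls at -60 in Nop2, 35 in Grwd1, 29 in Ltv1, 25 in Tsr1 and 38 in Utp20. Factors with the E-box had a median log2 fold change of 1.17, with 10 of 11 higher, and those with a promoter entry but no E-box had a median of 1.01, with 30 of 35 higher. The GC box GGGCGG (either strand) was found in 34 of the 46 (73.9%) and in 71.4% of tested genes, and TATAAA (either strand) in 2 of the 46 (4.35%) and in 8.37% of tested genes. A match describes the letters only; binding was not measured.

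A minority of the factors host snoRNA genes. By GENCODE M21, 7 of the 52 factors (13.5%) contain at least 1 snoRNA gene on their own strand. This was so for 1.97% of all tested genes and for 3.31% of the 121 tested genes of the wider pathway described below. These hosts are Ncl, Nop56, Nop58, Dkc1, Wdr43, Tsr1 and Gnl3. All 7 were higher, as were 86.5% of the 52 factors and 40.5% of all tested genes. The share among all tested snoRNA hosts was not computed. Log2 fold changes of the 7 ran from 0.14 (Wdr43) to 1.56 (Nop56). The rise of Wdr43 was lost when the values were rescaled to the TPM scale (-0.01). The hosted snoRNAs themselves were not analysed here.

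The genes of ribosomal RNA transcription and the abundant nucleolar phosphoproteins were split by size and direction. Of 7, 6 rose and 1 fell, with a median log2 fold change of 0.81. Mybbp1a, a nucleolar protein that restrains RNA polymerase I, stood at 60.9, 59.9 and 60.3 FPKM in PBS libraries 1 to 3 and at 137.1, 139.1 and 135.5 FPKM in nanoparticle libraries 1 to 3 (log2 fold change 1.17 with SE 0.025, limma adjusted p = 1.62e-10). Ddx21, a helicase that acts on ribosomal RNA and snoRNAs, went from 26.4, 26.9 and 26.9 to 72.9, 75.9 and 71.8 FPKM (log2 fold change 1.43 with SE 0.031, limma adjusted p = 2.12e-10). Nolc1, a chaperone of snoRNPs also known as Nopp140, went from 21.3, 19.5 and 19.3 to 74.0, 79.6 and 76.3 FPKM (log2 fold change 1.89 with SE 0.045, limma adjusted p = 3.41e-10). In each of the 3 the groups stood well apart. Ncl, nucleolin, rose from 147 ± 1.01 to 233 ± 2.07 FPKM (mean ± SD, n = 3 libraries a group, as in all such pairs below). Rrn3, which recruits RNA polymerase I to its promoter, rose from 15 ± 0.93 to 27.1 ± 1.22 FPKM. Ubtf, which binds the ribosomal DNA and sits beside Rrn3 in initiation, moved far less, from 55.6 ± 1.27 to 61.6 ± 0.346 FPKM. Its log2 fold change of 0.14 passed (limma adjusted p = 0.000847) but turned to -0.01 on the TPM scale and to -0.06 once a trend by gene span and length was taken out, neither of which passed. The TPM scale, on which each library sums to the same total, moved the median of all tested genes from -0.06 to -0.21.

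Npm1, nucleophosmin, went against the rest. It encodes a histone and ribosome chaperone that shuttles out of the nucleolus, and its level of 1159, 1248 and 1226 FPKM in the PBS libraries fell to 886, 827 and 857 FPKM in the nanoparticle libraries. The 3 nanoparticle libraries lay below all PBS libraries (log2 fold change -0.50 with SE 0.036, limma adjusted p = 5.71e-07), and the gene is at GRCm38 chromosome 11, 33152287 to 33163206. With PBS, Npm1 alone made up 43.9% ± 1.0 of the summed FPKM of the 52 factors, and with nanoparticles 21.9% ± 0.729. The sum over all 52 went from 2758 ± 43.0 to 3917 ± 10.2 FPKM, a ratio of 1.42. Over the 51 others it went from 1547 ± 5.64 to 3060 ± 25.5 FPKM, a ratio of 1.98.

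**Figure D2:**
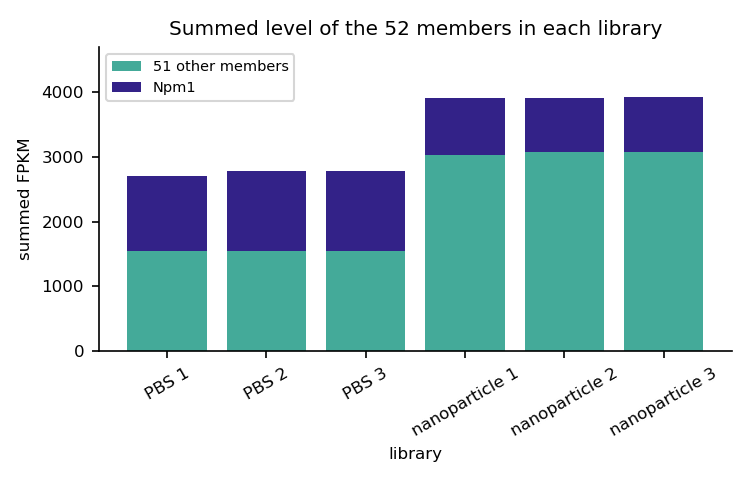
Summed FPKM of the 52 factors in each of the 6 libraries, with the share of Npm1 in the dark segment. The light segment (51 other factors) grows from about 1547 to 3060 FPKM on average while the dark segment shrinks from 1211 to 857 FPKM.

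The mRNAs of all 7 listed snoRNP core proteins rose, as did that of Snu13, a further core protein of the box C/D particles that was listed with the wider pathway (36.3 ± 1.48 to 61.9 ± 0.457 FPKM). In the box C/D particles, which guide 2′-O-methylation, Nop56 stood at 113.4, 113.1 and 112.8 FPKM with PBS and at 332.1, 339.7 and 334.3 FPKM with nanoparticles (log2 fold change 1.56 with SE 0.023, limma adjusted p = 2.36e-11). Fbl, fibrillarin, the methyltransferase itself, went from 91.9, 93.1 and 90.7 to 133.6, 131.0 and 131.5 FPKM (log2 fold change 0.52 with SE 0.024, limma adjusted p = 2.6e-08). Nop58, the partner of Nop56 in the scaffold, went from 33.4, 31.4 and 32.9 to 57.6, 61.5 and 63.6 FPKM (log2 fold change 0.88 with SE 0.042, limma adjusted p = 2.91e-08). The groups did not overlap for any of the 3, but the sizes differed, so their levels relative to each other shifted: Nop56 was 1.23 ± 0.0145 times Fbl with PBS and 2.54 ± 0.0542 times Fbl with nanoparticles. Nop58 was 0.288 ± 0.00895 of Nop56 with PBS and 0.182 ± 0.00853 with nanoparticles. FPKM is scaled by length, so such ratios compare levels between genes.

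In the box H/ACA particles, which turn uridine into pseudouridine and also form part of telomerase, Dkc1 (dyskerin, the enzyme) went from 22.4, 22.8 and 23.6 to 56.7, 59.9 and 57.9 FPKM (log2 fold change 1.31 with SE 0.035, limma adjusted p = 6.69e-10). Nhp2, an RNA-binding subunit, went from 28.7, 25.8 and 29.0 to 101.1, 98.4 and 107.8 FPKM (log2 fold change 1.84 with SE 0.051, limma adjusted p = 1.28e-09). Nop10, a very small subunit, went from 19.5, 17.5 and 19.5 to 48.2, 46.8 and 55.0 FPKM (log2 fold change 1.36 with SE 0.065, limma adjusted p = 5.53e-08). Gar1, which helps release the modified RNA, rose least of the 4, from 22.2 ± 1.15 to 42.1 ± 3.57 FPKM. With PBS the 4 subunits lay between 18.9 and 27.9 FPKM on average. The ratio of Nop10 to Dkc1 overlapped between the groups (0.823 ± 0.0517 and 0.861 ± 0.0847), while Nhp2 went from 1.21 ± 0.0778 to 1.76 ± 0.111 times Dkc1 and Gar1 from 0.97 ± 0.0321 to 0.725 ± 0.064 times Dkc1.

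The plot of complex levels draws 4 assemblies subunit by subunit. In all, 14 ratios between partners were computed and 13 did not overlap between the groups. Taken singly, 9469 of the 10863 tested genes did not overlap between the groups either, and no such share was computed for ratios of other genes. The pairs were picked with the values known, so no test was made of them.

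**Figure D3:**
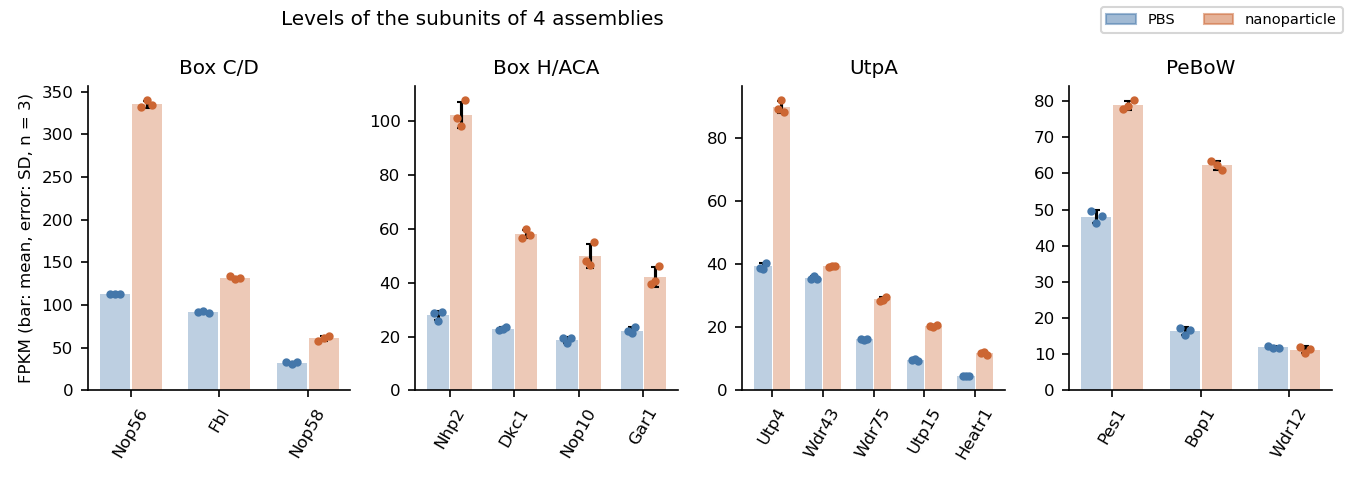
Mean FPKM (bars, error bars SD, n = 3 libraries) and single libraries (points) of the subunits of 4 assemblies, PBS in blue and nanoparticle in orange. Wdr12 averages 11.9 and 11.3 FPKM while Bop1 climbs from 16.4 to 62.2 FPKM, and Wdr43 averages 35.6 and 39.4 FPKM while Utp4 climbs from 39.3 to 89.8 FPKM.

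The UtpA complex binds the precursor RNA first and links its transcription to small subunit assembly. All 5 of its listed subunits were called higher, with a median log2 fold change of 1.01. Utp4 went from 38.9, 38.6 and 40.4 to 89.1, 91.9 and 88.3 FPKM (log2 fold change 1.17 with SE 0.031, limma adjusted p = 5.86e-10). Utp15 went from 9.67, 9.80 and 9.46 to 20.3, 20.1 and 20.7 FPKM (log2 fold change 1.01 with SE 0.039, limma adjusted p = 6.74e-09). Wdr75 went from 16.2, 16.0 and 16.3 to 28.4, 28.7 and 29.8 FPKM (log2 fold change 0.80 with SE 0.035, limma adjusted p = 1.62e-08). Heatr1, a long repeat protein, had the lowest level of the 5 (4.61 ± 0.134 and 11.7 ± 0.572 FPKM) and the largest log2 fold change (1.18). Heatr1 and the 3 subunits above kept their groups well apart. Wdr43 did so only narrowly, from 35.6 ± 0.628 to 39.4 ± 0.269 FPKM, and its log2 fold change of 0.14 (limma adjusted p = 0.00138) became -0.01 on the TPM scale. Its level was 0.907 ± 0.0356 of that of Utp4 with PBS and 0.439 ± 0.0085 with nanoparticles.

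The other factors of the small subunit were the most uneven block: of 15, 11 rose, 2 fell and 2 did not pass, with a median log2 fold change of 0.92. Rrp9, a protein specific to the U3 snoRNP that guides the early cuts, had the largest fitted log2 fold change of the 52 (GRCm38 chromosome 9, 106475963 to 106485424), on the log2(FPKM + 1) scale, which understates the change of low genes. It stood at 15.7, 17.3 and 16.8 FPKM with PBS and at 63.2, 68.6 and 67.8 FPKM with nanoparticles, 4.01 times the PBS mean (log2 fold change 1.94 with SE 0.046, limma adjusted p = 3.2e-10). Noc4l, which pairs with Nop14, went from 18.2, 18.2 and 18.8 to 47.9, 49.3 and 46.1 FPKM (log2 fold change 1.33 with SE 0.036, limma adjusted p = 6.97e-10). Bysl, bystin, which stays on the precursor of the 40S subunit until late, went from 5.10, 4.64 and 4.98 to 21.3, 20.4 and 19.5 FPKM (log2 fold change 1.85 with SE 0.052, limma adjusted p = 8.89e-10). As a ratio of mean FPKM, Bysl led the 52 with 4.15. In none of these did the groups overlap.

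The remaining 8 risen factors of that block spanned log2 fold changes from 0.17 to 1.39. Ltv1 (7.72 ± 0.607 to 21.8 ± 0.393 FPKM, log2 fold change 1.39) and Tsr1 (21.4 ± 0.622 to 54.3 ± 2.66 FPKM, 1.30), which accompany the 40S precursor into the cytoplasm, were at the upper end. Rrp12 (1.13), which helps export it, followed at the low level of 3.28 ± 0.132 and 8.36 ± 0.0711 FPKM. Nat10 (0.95), which acetylates cytidines of the small subunit RNA, Imp4 (0.92), Nop14 (0.85) and Utp14a (0.79) lay in the middle. Rcl1 rose least, from 22.2 ± 0.587 to 25.1 ± 1.36 FPKM (limma adjusted p = 0.00524), and did not pass on the TPM scale (0.03).

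Imp3 and Ddx10 fell. Imp3, which with Imp4 joins the U3 snoRNA to the precursor, went from 54.1, 58.4 and 51.96 to 45.2, 44.1 and 44.5 FPKM (log2 fold change -0.29 with SE 0.042, limma adjusted p = 0.000106). Its partner Imp4 went the other way, so that Imp3 was 4.52 ± 0.151 times Imp4 with PBS and 1.87 ± 0.164 times with nanoparticles. Ddx10, a helicase of the early small subunit particle, had the largest fall of the 52. It went from 14.8, 14.8 and 13.2 to 4.29, 4.58 and 5.09 FPKM, 0.327 of the PBS mean (log2 fold change -1.43 with SE 0.068, limma adjusted p = 2.81e-08). Ddx10 is also the longest gene of the 52, at 149 kb (GRCm38 chromosome 9, 53098635 to 53248053), whereas Imp3 is the shortest, at 0.924 kb (chromosome 9, 56937475 to 56938398).

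Utp20 and Nob1 did not pass. Utp20, a very large repeat protein of the small subunit particle, stood at 6.77, 6.71 and 6.62 FPKM with PBS and at 6.85, 7.03 and 6.12 FPKM with nanoparticles (log2 fold change -0.01 with SE 0.058, limma adjusted p = 0.892). Nob1, the nuclease that makes the final cut of the small subunit RNA, stood at 38.4, 34.02 and 36.3 FPKM with PBS and at 36.6, 35.5 and 35.5 FPKM with nanoparticles (log2 fold change -0.01 with SE 0.044, limma adjusted p = 0.773). The groups overlapped in both. On the TPM scale both passed as lower (-0.15 and -0.17), and once the trend by span and length was taken out Utp20 passed as higher (0.62) and Nob1 as lower (-0.26).

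The large subunit factors rose almost throughout. In the PeBoW complex, which is needed to cut the RNAs of the large subunit from the precursor, the 3 subunits parted. Bop1 went from 17.3, 15.3 and 16.7 to 63.5, 62.2 and 61.0 FPKM (log2 fold change 1.86 with SE 0.045, limma adjusted p = 3.5e-10). Pes1 went from 49.7, 46.3 and 48.1 to 77.7, 78.7 and 80.1 FPKM (log2 fold change 0.70 with SE 0.032, limma adjusted p = 2.33e-08). Wdr12, by contrast, stood at 12.3, 11.7 and 11.8 FPKM with PBS and at 11.997, 10.3 and 11.5 FPKM with nanoparticles, with overlapping groups (log2 fold change -0.07 with SE 0.058, limma adjusted p = 0.264); it passed as lower only on the TPM scale (-0.22). Bop1 went from 0.342 ± 0.00936 to 0.789 ± 0.028 of the level of Pes1, and Wdr12 from 0.248 ± 0.00358 to 0.143 ± 0.0118 of it.

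Of the other 15 large subunit factors, 14 rose and 1 did not pass, with a median log2 fold change of 1.21, and 10 of them rose at least 2-fold. Nop2, which methylates a cytosine of the large subunit RNA, went from 22.4, 21.9 and 22.5 to 84.6, 86.4 and 85.6 FPKM (log2 fold change 1.89 with SE 0.028, limma adjusted p = 2.45e-11). Gnl3, the GTPase nucleostemin, went from 49.0, 50.3 and 50.9 to 124.5, 129.7 and 122.8 FPKM (log2 fold change 1.31 with SE 0.030, limma adjusted p = 2.78e-10). Grwd1, a chaperone of a ribosomal protein of the large subunit, went from 14.9, 14.6 and 14.2 to 40.5, 40.4 and 42.3 FPKM (log2 fold change 1.44 with SE 0.036, limma adjusted p = 4.43e-10). The nanoparticle libraries of all 3 lay far above those with PBS.

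Nip7 rose from 9.67 ± 0.477 to 29.1 ± 0.277 FPKM, a log2 fold change of 1.496. Rrs1 (1.31), which helps load the 5S RNA, Ddx18 (1.29), a helicase, Ebna1bp2 (1.253), Nop16 (1.21), Wdr74 (1.15) and Mrto4 (1.13), which holds the place of the ribosomal stalk, followed in order of log2 fold change. GENCODE M21 names 2 pseudogenes after Mrto4, so its reads could have been split. Pseudogenes that carry other names were not counted, so the same could hold for other factors. Noc3l (0.90), the GTPase Gnl2 (0.84) and the helicase Ddx56 (0.44) rose by less. Noc2l, which pairs with Noc3l, rose from 47.4 ± 1.82 to 54.5 ± 2.01 FPKM (limma adjusted p = 0.000855, log2 fold change 0.20); it did not pass on the TPM scale (0.05), and its sign turned to -0.07, also without passing, with the trend taken out. Rrp1 stood at 87.5, 91.2 and 92.3 FPKM with PBS and at 93.8, 93.4 and 94.3 FPKM with nanoparticles and did not pass (log2 fold change 0.05 with SE 0.028, limma adjusted p = 0.0921), although its groups did not overlap. Its call changed with the processing. Rrp1 passed as lower on the TPM scale (-0.10) and once the trend by span and length was taken out, and as higher with median-of-ratios scaling (0.12).

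**Figure D4:**
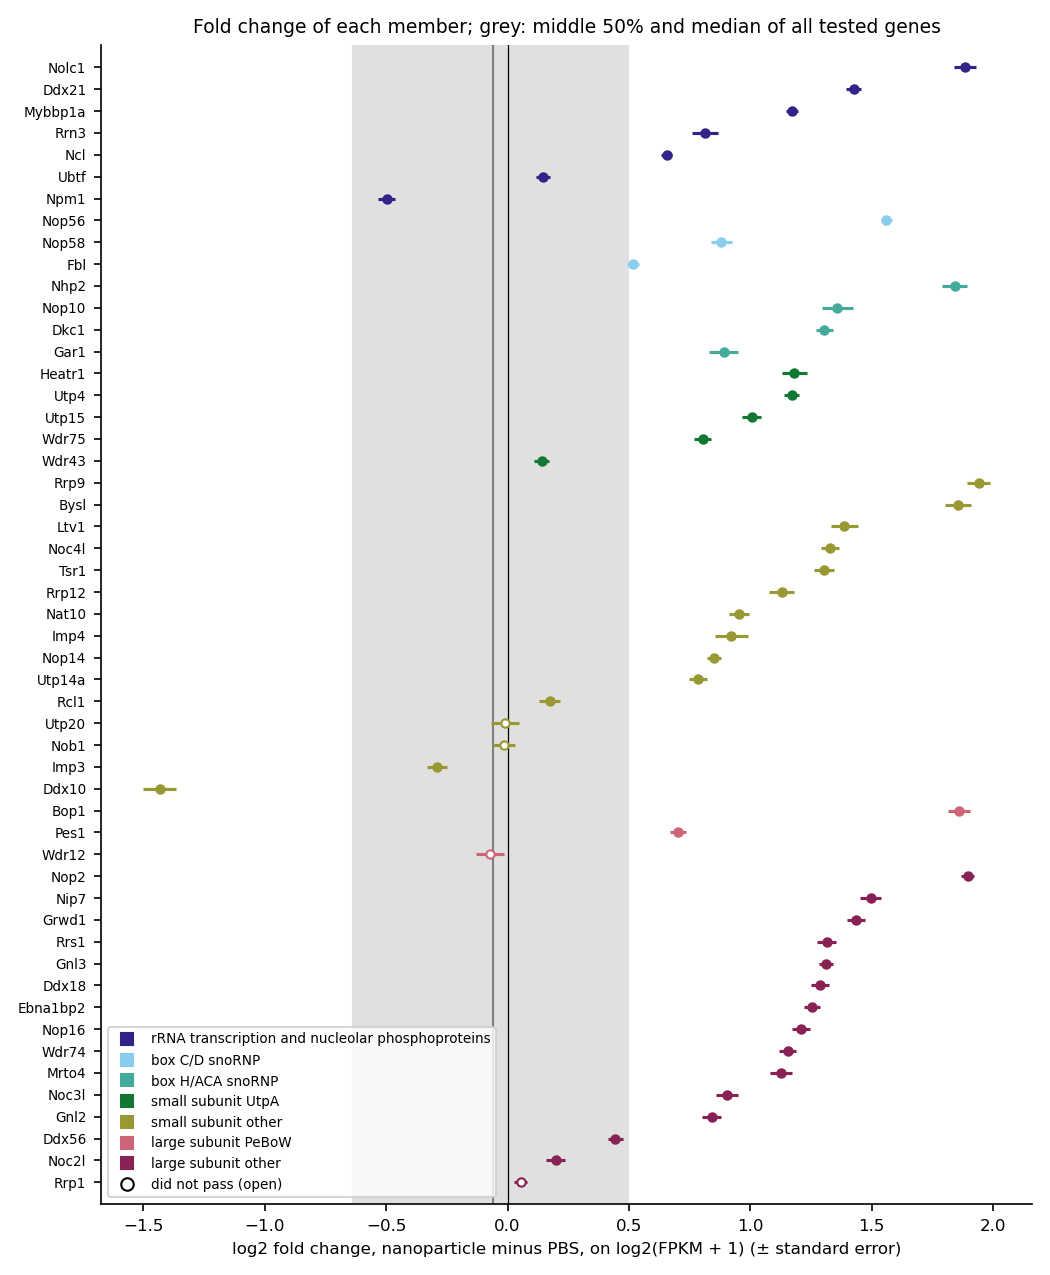
Log2 fold change of each of the 52 factors (nanoparticle minus PBS, ± standard error), coloured by role; open points did not pass. The grey band is the middle 50% of all tested genes (-0.64 to 0.50) and 40 of the 52 points lie to its right, from Fbl (0.52) to Rrp9 (1.94).

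Within the whole table, 26 of the 52 factors stood at or above the 90th percentile of log2 fold change of all tested genes, up to 98.0 for Rrp9, and Utp15 stood just under it at 89.9. Log2 fold changes of at least 1.5 were reached by 7 factors, 1 to 1.5 by 20 and 0.5 to 1 by 13. Those from 0.1 to 0.5 numbered 5, those within 0.1 of 0 numbered 4, and those under -0.1 numbered 3. Across the 52 factors the log2 fold change went with the log2 PBS level at a Spearman's rho of -0.27 (Pearson's r -0.32), a description over genes measured in the same 6 libraries.

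Genes of long genomic span (start to end, introns included) were mostly lower in these libraries, and the factors are mostly short. The median span of the 52 was 12.8 kb against 23.2 kb for all tested genes, and only Ddx10 spanned 100 kb or more. In the class from 5 to 10 kb, all 12 factors were higher, with a median log2 fold change of 1.23, where 60.1% of all 1461 tested genes were higher and their median was 0.33. From 10 to 20 kb, 12 of 15 factors were higher with a median of 1.01, against 55.2% and 0.23 for all genes. From 20 to 50 kb, 15 of 16 factors were higher with a median of 0.86, against 39.3% and -0.05. Under 5 kb, 6 of 7 were higher with a median of 1.36, against 60.3% and 0.35. The single factors beyond 50 kb were Utp20 (-0.01, 80.2 kb, where the median of all genes from 50 to 100 kb was -0.54) and Ddx10 (-1.43, where the median of all genes of 100 kb or more was -1.10). Spearman's rho of log2 fold change with span was -0.40 over the 52 factors and -0.49 over 10836 tested genes, as a description of genes that share the libraries. After a loess trend by span and exonic length was taken out, 44 of the 52 were higher and 5 lower, and the median was 0.89, beside 4447 higher and 4686 lower of 10836 tested genes with a median of -0.02 in that same fit. The part of gene span in the changes of single factors was not tested.

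**Figure D5:**
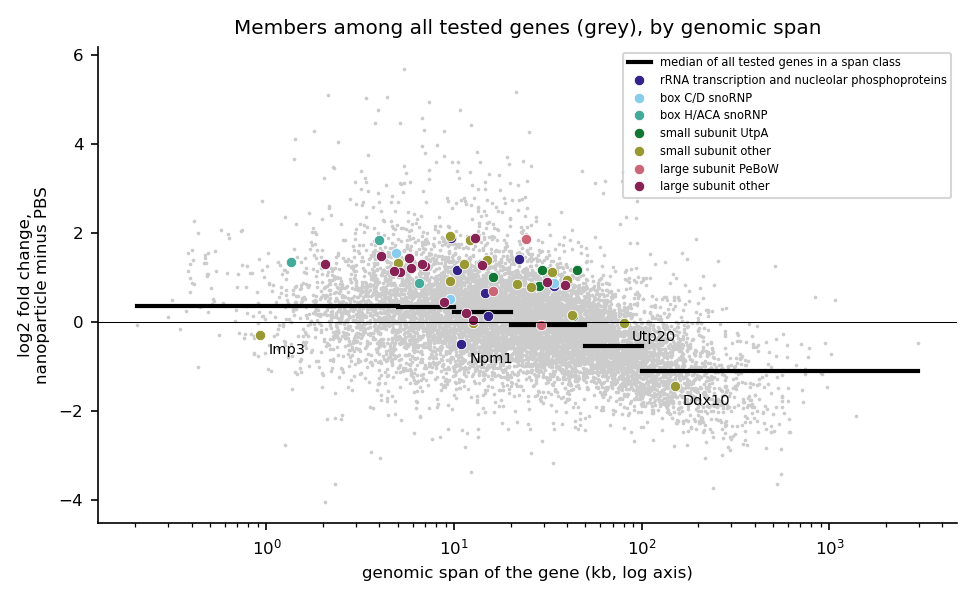
Log2 fold change against genomic span in kb (log axis) for all tested genes (grey) and the 52 factors (coloured by role), with black bars for the median of all tested genes in 6 span classes. The factors under 50 kb lie mostly above the bars, and Ddx10 (-1.43) at 149 kb lies under the bar of its class (-1.10).

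Some factors share exonic bases with a neighbour. By GENCODE M21, 14 overlap a protein-coding gene on the opposite strand, by 0.122% to 32.3% of their exonic length, and whether the libraries keep strand was not given in the sources used here. The largest overlap was that of Tsr1 with Srr, whose level fell (log2 fold change -0.73) while that of Tsr1 rose. Bysl shares 9.37% with Ccnd3, which rose as well (0.69), and Rrp9 shares 0.682% with Parp3 (1.00). If the libraries do not keep strand, reads from the shared bases cannot be assigned to one of the pair.

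The wider pathway was described with 123 further genes of ribosome assembly listed by role, of which 121 were tested. Of these, 99 rose (81.8%), 15 fell (12.4%) and 7 did not pass, with a median log2 fold change of 0.58, and 25 rose at least 2-fold (20.7%). The smallest adjusted p among those that rose belonged to Ftsj3, a methyltransferase of the large subunit particle (37 ± 1.06 to 130.2 ± 0.458 FPKM), Ddx24, a helicase (35.6 ± 0.398 to 96.3 ± 1.06 FPKM) and Mak16 (27.7 ± 0.487 to 76.4 ± 1.47 FPKM). Among those that fell it belonged to Xrn2, an exonuclease that trims ribosomal RNA (61.5 ± 0.962 to 30.5 ± 0.974 FPKM), Wdr36, a small subunit factor (67.6 ± 1.79 to 34.8 ± 1.13 FPKM) and Nop53, a large subunit factor (46 ± 0.709 to 32.8 ± 0.374 FPKM). By role, 39 of 43 further small subunit genes rose (median 0.65), 33 of 40 large subunit genes (0.65), 8 of 10 genes of snoRNP assembly (0.45), 10 of 14 genes of ribosomal RNA transcription (0.54) and 9 of 14 genes of the exosome and RNA decay (0.27). The median of the 52 nucleolar factors (1.07) was above each of these medians, a difference that was not tested.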

How the data were processed

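mRNA libraries of 4T1 cells, 3 with PBS and 3 with nanoparticles, were analysed from 1 deposited table. Its FPKM values were made by the authors with STAR and featureCounts on GRCm38 (mm10), per the submitters' processing notes, which give no version; the program that scaled them was not given in the sources used here. The unit was inferred: the values are not whole, and their sums differ between libraries (421544 to 472870). Low values showed no step of 1 read (at most 1.82% of ratios between libraries of a group fell in one 1% bin), so depth is unknown and values carry no counting intervals. Of 22806 features, 701 without a gene identifier stayed out of the tests.

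Genes at or above 1 FPKM in 3 libraries were tested on log2(FPKM + 1), so fold changes of low genes are understated, with limma 3.58.1 (R 4.3.3, trend and robust settings, statmod 1.5.0), two-sided, without a replicate block. P-values were adjusted by the Benjamini-Hochberg method over all 10863 tested genes and called under 0.05. The fit was also tested on simulated data. Few genes changed there, as many up as down, so that test cannot check the scaling between these libraries. A rise of at least 2-fold means a call with a log2 fold change of 1 or more. The factors and the other gene lists were chosen with earlier results of these data known, which also holds for the rule on genes shown by library: the 3 with the smallest adjusted p in each role and every factor that fell or did not pass. Positions, spans and snoRNA hosts came from GENCODE M21, promoters from RefSeq; Python 3.11.15 with pandas 2.3.3 and scipy 1.17.1 was used. Alternatives were another pseudocount, filters, a stricter threshold, limma's test relative to a 1.5-fold change, blocking on the replicate number, 2 scalings, removal of the span and length trend by loess, and each library left out.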

Additional observations from a re-analysis of the deposited data

How the results depend on the processing

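Of the 52 factors, 45 higher and 3 lower were also counted with a pseudocount of 0.1 FPKM, no filter on low values, a filter at 5 FPKM, a threshold of 0.01, a replicate block and each library left out. The count of lower factors was 1 in the test against a 1.5-fold change (39 higher), 7 on the TPM scale (41 higher) and 5 once the trend by span and length was taken out (44 higher). The median log2 fold change of the factors was 1.11 with a pseudocount of 0.1 FPKM, 0.94 on the TPM scale, 1.12 with median-of-ratios scaling, 0.89 with the trend removed, and 1.05 to 1.07 with 1 library left out. The TPM scale moved the median of all tested genes from -0.06 to -0.21.

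Signs turned on the TPM scale for Ubtf (-0.01), Wdr43 (-0.01) and Rrp1 (-0.10), with median-of-ratios scaling for Utp20 (0.05) and Nob1 (0.05), and with the trend removed for Ubtf (-0.06), Utp20 (0.62), Rrp1 (-0.19) and Noc2l (-0.07). With 1 library left out, Nob1 ranged from -0.06 to 0.03 (positive only without PBS replicate 1) and Utp20 from -0.04 to 0.04 (positive only without nanoparticle replicate 3), neither passing. The cause was not tested.

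Without a filter 20124 genes were tested, of which 8445 were higher and 5227 lower. With the filter, 4395 of 10863 were higher and 4996 lower. Genes at very low values were more numerous with nanoparticles, as described above. Their part in the larger count of higher genes was not tested. Against a 1.5-fold change 1853 of all tested genes were higher and 2341 lower, and of the further pathway genes 49 were higher and 3 lower. With the replicate block, no factor changed its call, and 4389 of all tested genes were higher and 4982 lower. No pairing by replicate number was seen: same-numbered deviations correlated at -0.014, -0.043 and 0.041, and not every library correlated best with its own number. With 3 libraries a group, such correlations cannot exclude that same-numbered libraries were prepared together. Precision is limited by 3 libraries a group of unknown depth.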
